A study of Mus musculus with 6 samples.

Results

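Genes that make, limit, break down and respond to retinoic acid were followed across 6 cultures of mouse fallopian tube organoids. 9 gene symbols were listed for this pathway, and probes were assigned to them through the RefSeq transcript that the scanner files give for each probe. 8 of the 9 symbols matched, with 11 probes, out of 23787 genes that could be named on the array. They were Aldh1a1, Aldh1a2, Aldh1a3, Stra6, Dhrs3, Cyp26a1, Cyp26b1 and Rarb. Crabp2, a carrier that brings retinoic acid to its nuclear receptors, was not analysed here. Dhrs3 had 2 probes, Rarb had 3, and each of the other genes had 1.

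Organoids are hollow cysts of epithelium that primary cells form in a gel, here from the mouse oviduct. Total RNA of each culture was measured on 1 one-colour Agilent array. Tumour-derived Pik3ca/Trp53 organoids were grown out of a subcutaneous tumour of cells with Pik3caH1047R, an activating mutant of a PI3-kinase subunit, and Trp53 loss, and its labelled histology was adenocarcinoma. Pik3ca/Trp53 was the culture of that genotype before it was inoculated. Tumour-derived Apc/Trp53 organoids came in the same way from a lesion with Trp53 loss and Apc580D (Apc holds the Wnt pathway in check), labelled as a cyst, and Apc/Trp53 was the culture of that genotype before inoculation. Trp53 loss organoids lacked the gene of the tumour suppressor p53 only, and control organoids held the vector pLKO.1 and were grown from Trp53flox/flox mice. All 6 cultures were labelled as female. The labels name neither the promoter of a transgene, nor a Cre, nor the number of animals or lesions behind a culture. Per the labels, the serum-free medium contained CHIR-99021, Jagged-1, Noggin, R-spondin1, Y27632 and EGF, the supplements given there in ng/ml or μM. None of these is a retinoid, and whether another part of the medium held one was not checked.

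Cells take up retinol from blood, store it as esters, and oxidise it first to retinal and then, through the ALDH1A enzymes, to retinoic acid. Retinoic acid binds receptors of the RAR family, which sit with RXR partners on response elements in DNA, and CYP26 enzymes break it down. Several genes that limit the signal, among them Cyp26a1 and Dhrs3, are themselves induced by it, which makes them common readouts of the pathway. In the female tract retinoic acid is known for its part in the development of the Müllerian duct, from which the oviduct arises.

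Levels are given as log2 of the background-subtracted signal minus the array's 75th percentile, so a level of 0 is the brightness that 75% of an array's spots do not exceed. They compare a probe between arrays, and levels of different probes cannot be set against each other. A signal is called dim where the scanner software did not mark it as well above background. The background limit of an array is the dimmest level still marked that way on it (-4.90 to -4.24 over the 6 arrays). For folds given as at least a value, dim signals below the limit were raised to it, which makes a lower bound under this background subtraction. A dim signal above the limit was used as measured, and its fold is not a bound. Since each group has a single array, a difference between 2 cultures cannot be checked against replicates and gets no p-value, and so few arrays limit how precise each value is. Copies of 281 repeatedly printed probes, all well above background on all 6 arrays, had a median SD of 0.0382 to 0.0794 within an array. A difference under 0.22 cannot be told from this spread, called the technical spread below. The spread between arrays was not measured, nor that of probes nearer the background limit, so a difference above 0.22 can still lie within those. In bulk RNA, fewer cells of a type and less RNA per cell cannot be told apart.

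Between 45.44% and 50.97% of the 56605 gene probes were well above background on an array, and no spot was saturated. All 12 listed markers of oviduct epithelium, such as Epcam, Pax8 and Ovgp1, were well above background on every array. The single Trp53 probe was well above background in tumour-derived Pik3ca/Trp53 (-1.64) and in Apc/Trp53 (-3.59) and dim in Pik3ca/Trp53, tumour-derived Apc/Trp53 and Trp53 loss. All 5 were lower than control, which had a level of 0.88. Where the probe lies in the gene is not given in the sources used here. It therefore does not check the deletion. The tumour-derived arrays and control lay in row 2 of the slide and the other 3 arrays in row 1. Slide row therefore cannot be told apart from a comparison of a tumour-derived culture with its source. The same holds for a comparison of control with Trp53 loss or with the 3 Trp53-loss cultures before inoculation. Pik3ca/Trp53, Apc/Trp53 and Trp53 loss shared a row. The summed signal of 8 markers of multiciliated cells was 42.7 in tumour-derived Pik3ca/Trp53, 39.4 in Pik3ca/Trp53 and 23.9 in tumour-derived Apc/Trp53. It was 20.0 in Apc/Trp53, 17.8 in Trp53 loss and 26.4 in control. Tubb4b, the brightest of these markers, was well above background on all 6 arrays. The leukocyte sum was 18.1 in control, 13.8 in Trp53 loss and 3.66 to 10.5 on the other arrays. The fibroblast list set tumour-derived Pik3ca/Trp53 apart. There, 4 of 10 fibroblast markers were well above background, with a summed signal of 5.82 times the 75th percentile, against 0.108 to 0.261 on the other 5 arrays. Most of that sum came from Postn, at 1.18 to 2.98 over its probes. The highest levels of Pdgfra, Col1a2 and Col1a1 were -0.99, -3.24 and -3.87, and Pdgfra was also well above background in tumour-derived Apc/Trp53 (-1.94). Dcn, Lum, Dpt and Col3a1 were dim on all 6. The basal keratin genes Krt5 and Krt14 had levels of 3.47 and 4.92 in tumour-derived Pik3ca/Trp53, against -6.77 to -2.96 on the other 5 arrays. Krt5 belongs to the list of 8 squamous and basal markers, with a summed signal of 41.5 in tumour-derived Pik3ca/Trp53, 29.0 in Pik3ca/Trp53, 7.17 in tumour-derived Apc/Trp53, 8.08 in Apc/Trp53, 5.47 in Trp53 loss and 25.1 in control. Sprr1a and Sprr2f, genes of squamous cells, were well above background on all 6 arrays. Krt14 was listed with the mesothelial markers, of which Msln was well above background on all 6 arrays. The part of other cell types in the results below was not tested.

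Rarb and Cyp26a1 are the classical examples of genes with a retinoic acid response element just before the start of transcription. Such an element is a pair of half-sites in the same direction with 5 bases between them, called a DR5. Half-sites spelled AGGTCA or AGTTCA, and likewise GGTTCA or also GGGTCA, were allowed in either place and searched on both strands from 250 bases before to 50 bases after the start, in the RefSeq promoter table of build GRCm38.p6. A DR5 of these letters was found in 32 of 32851 promoters, or 0.0974%, and in 2 of the 13 promoters that the table gives for 7 of the genes studied here. The 2 are Rarb and Cyp26a1, whose known elements consist of half-sites allowed in the search. Their matches therefore follow from the letters chosen, and the 2 of 13 cannot be read against the share of all promoters. The 150 bases before the start are shown for both genes, since these are the members whose response to retinoic acid rests on a known element, and capitals mark the DR5. Rarb lies on the minus strand at chr14:16575477-16575626, with the element on the gene's own strand, 53 to 37 bases before the start. Cyp26a1 lies on the plus strand at chr19:37697658-37697807, with the element on the opposite strand, 32 to 16 bases before the start. A match of letters is a description and does not show that a receptor was bound.
Rarb: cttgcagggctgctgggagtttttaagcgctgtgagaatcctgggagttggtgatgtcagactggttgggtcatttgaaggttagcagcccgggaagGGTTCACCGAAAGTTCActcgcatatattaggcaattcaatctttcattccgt
Cyp26a1: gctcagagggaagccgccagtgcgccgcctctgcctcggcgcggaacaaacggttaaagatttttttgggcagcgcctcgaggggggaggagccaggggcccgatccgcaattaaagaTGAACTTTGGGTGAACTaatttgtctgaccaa

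The ALDH1A enzymes, which carry out the last step of retinoic acid synthesis, had their highest levels on 3 different arrays. Aldh1a1, the form that is widely used to mark stem-like cells of epithelia and tumours, had levels of -2.59 in tumour-derived Pik3ca/Trp53, 1.33 in Pik3ca/Trp53, 6.68 in tumour-derived Apc/Trp53, 2.51 in Apc/Trp53, -1.92 in Trp53 loss and 1.00 in control. It was well above background on all 6 arrays, and all neighbouring levels were further apart than the technical spread. Tumour-derived Apc/Trp53 stood far above the rest, 51.5-fold over control, 18.0-fold over Apc/Trp53 and 619-fold over tumour-derived Pik3ca/Trp53, the lowest array.

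Aldh1a3, a form of the enzyme found in several epithelia, was highest in the other tumour-derived culture. Its levels were 3.72 in tumour-derived Pik3ca/Trp53, -1.34 in Pik3ca/Trp53, -0.73 in tumour-derived Apc/Trp53, -1.01 in Apc/Trp53, -0.46 in Trp53 loss and 1.21 in control. Tumour-derived Pik3ca/Trp53 was 5.71-fold above control, the next array in order, and 33.4-fold above Pik3ca/Trp53, the lowest. The 4 arrays from -1.34 to -0.46 followed each other in steps of 0.27 to 0.33, and the step between the Apc arrays turned from 0.28 to -0.05 when arrays were scaled on their median, so no order is read among them. The highest Aldh1a1 and the highest Aldh1a3 signals thus lay in the 2 tumour-derived cultures, one in each.

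Aldh1a2, the main synthesis enzyme of the embryo and of stromal and mesothelial cells, was well above background in Trp53 loss (-2.20) and Apc/Trp53 (-3.72) alone. It was dim in tumour-derived Pik3ca/Trp53, Pik3ca/Trp53, tumour-derived Apc/Trp53 and control, with signals of -6.99 to -5.64. Trp53 loss was therefore 2.86-fold above Apc/Trp53 and at least 4.11-fold to at least 5.70-fold above the 4 dim arrays. Of 6 mesothelial markers with a probe, Upk1b and Lrrn4 were dim on all 6 arrays, and Wt1 was well above background in Pik3ca/Trp53 (1.65) and Trp53 loss (-0.14) alone, where Aldh1a2 was dim in one and highest in the other. The summed mesothelial signal ran from 3.33 in tumour-derived Apc/Trp53 to 80.6 in tumour-derived Pik3ca/Trp53, which were both dim for Aldh1a2. The basal keratin gene Krt14 is counted in that sum, with a level of 4.92 in tumour-derived Pik3ca/Trp53 and a dim signal of -6.26 in control. Msln had levels of 5.64 and 5.80 on these arrays, so the highest sum rested in part on Krt14.

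Stra6, the membrane receptor that takes up retinol from its blood carrier, had the smallest range of levels, 2.18, of the 5 genes with a probe well above background on all 6 arrays. Its levels were -1.95 in tumour-derived Pik3ca/Trp53, 0.12 in Pik3ca/Trp53, 0.23 in tumour-derived Apc/Trp53, -1.04 in Apc/Trp53, -0.99 in Trp53 loss and -0.01 in control. Pik3ca/Trp53 lay within the technical spread of both tumour-derived Apc/Trp53 and control, its neighbours in order, and Trp53 loss and Apc/Trp53 did not differ beyond it. Tumour-derived Pik3ca/Trp53 lay below all others.

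**Figure D1:**
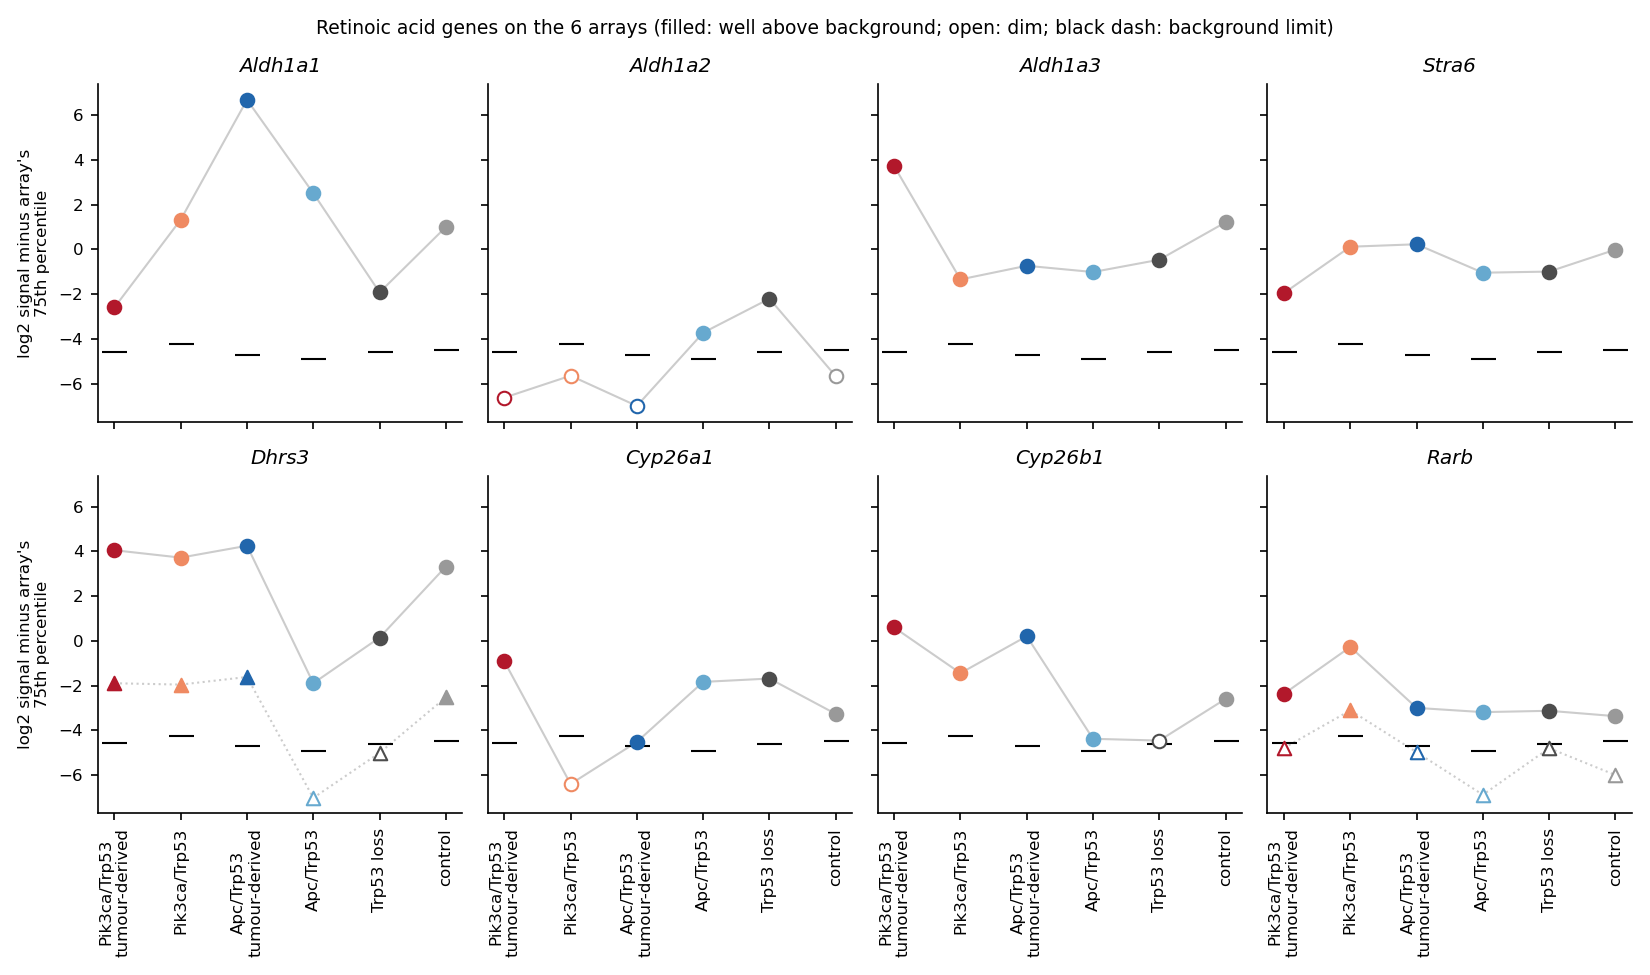
Level of each gene on the 6 arrays, as log2 signal minus the array's 75th percentile. Each point is 1 array, filled where well above background and open where dim, triangles are the second probe of Dhrs3 and Rarb (the third Rarb probe, dim on all arrays, is left out), and black dashes mark the background limit. Aldh1a1 peaks in tumour-derived Apc/Trp53 at 6.68 and Aldh1a3 in tumour-derived Pik3ca/Trp53 at 3.72, whereas Aldh1a2 is above background in Trp53 loss and Apc/Trp53 alone.

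Dhrs3, which reduces retinal back to retinol and so limits the synthesis of retinoic acid, had 2 groups of levels. Its brighter probe gave 4.05 in tumour-derived Pik3ca/Trp53, 3.72 in Pik3ca/Trp53, 4.25 in tumour-derived Apc/Trp53, -1.89 in Apc/Trp53, 0.15 in Trp53 loss and 3.32 in control. Apc/Trp53 and Trp53 loss lay far below the other 4 arrays, and the 2 tumour-derived arrays did not differ beyond the technical spread. The second probe gave -1.89 in tumour-derived Pik3ca/Trp53, -1.95 in Pik3ca/Trp53, -1.61 in tumour-derived Apc/Trp53 and -2.52 in control, and it was dim in Apc/Trp53 and Trp53 loss. Both probes thus placed the arrays in the same 2 groups. On the brighter probe tumour-derived Apc/Trp53 was 70.6-fold above Apc/Trp53 and 17.1-fold above Trp53 loss.

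The CYP26 enzymes, which break down retinoic acid, did not follow each other. Cyp26a1 had levels of -0.91 in tumour-derived Pik3ca/Trp53, -4.51 in tumour-derived Apc/Trp53, -1.83 in Apc/Trp53, -1.68 in Trp53 loss and -3.26 in control, and it was dim in Pik3ca/Trp53. Trp53 loss and Apc/Trp53 did not differ beyond the technical spread, and tumour-derived Apc/Trp53 lay just above its background limit of -4.71. Tumour-derived Pik3ca/Trp53 was 5.10-fold above control, 12.1-fold above tumour-derived Apc/Trp53 and at least 10.1-fold above Pik3ca/Trp53.

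Cyp26b1, which breaks down retinoic acid as Cyp26a1 does, had levels of 0.60 in tumour-derived Pik3ca/Trp53, -1.44 in Pik3ca/Trp53, 0.21 in tumour-derived Apc/Trp53, -4.37 in Apc/Trp53 and -2.59 in control, and it was dim in Trp53 loss at -4.45. The 2 tumour-derived arrays were highest, and Apc/Trp53 and Trp53 loss did not differ beyond the technical spread. This order resembled that of Dhrs3, with both genes lowest in Apc/Trp53 and Trp53 loss. Over the 6 arrays the profiles of Dhrs3 and Cyp26b1 had a Pearson r of 0.87, and those of Cyp26a1 and Cyp26b1 an r of -0.25, as descriptions of 6 arrays that share 1 slide and, in part, their source cultures.

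Rarb, the receptor gene with the DR5 shown above, was highest in Pik3ca/Trp53. Its brightest probe gave -2.36 in tumour-derived Pik3ca/Trp53, -0.27 in Pik3ca/Trp53, -2.99 in tumour-derived Apc/Trp53, -3.18 in Apc/Trp53, -3.12 in Trp53 loss and -3.36 in control. Tumour-derived Apc/Trp53, Trp53 loss, Apc/Trp53 and control followed each other in steps within the technical spread. Pik3ca/Trp53 was 4.27-fold above its tumour-derived culture and 8.55-fold above control. A second probe was well above background in Pik3ca/Trp53 alone, at -3.10, and the third was dim on all 6 arrays. Cyp26a1, the other gene with a DR5 before its start, had its only dim signal on the array where Rarb was highest. The Pearson r of the 2 profiles over the 6 arrays was -0.65, again a description of arrays that share cultures.

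**Figure D2:**
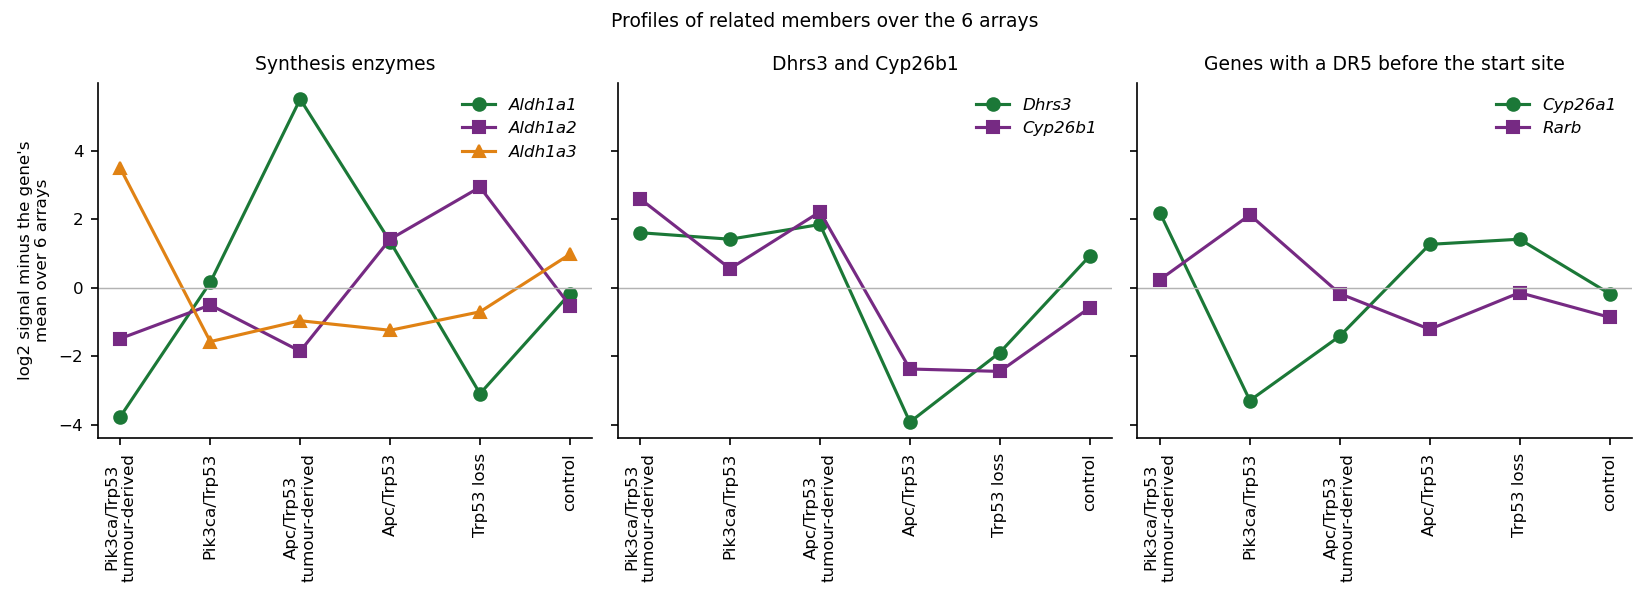
Profiles of related genes over the 6 arrays, each as log2 signal minus the gene's own mean (vertical axis), dim signals as measured. Each point is 1 array: the 3 synthesis enzymes peak on different arrays, Dhrs3 and Cyp26b1 are both lowest in Apc/Trp53 and Trp53 loss, and Cyp26a1 is lowest in Pik3ca/Trp53, where Rarb is highest.

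The comparison of Trp53 loss with control addresses the effect of losing Trp53 on its own. Of the 8 genes measured, 2 were higher in Trp53 loss by 2-fold or more and 4 were lower by as much. Over all 14361 genes measured on the same 2 arrays, 5.86% were higher by 2-fold or more and 7.58% lower. The median size of the difference was 1.76 for the 8 genes and 0.28 for all genes. Aldh1a2 was at least 4.82-fold higher and Cyp26a1 3.0-fold higher. Aldh1a1 was 7.53-fold lower, Dhrs3 at least 6.15-fold lower over 2 probes and Aldh1a3 3.19-fold lower. Cyp26b1 was 3.62-fold lower, with its dim Trp53 loss signal as measured. Stra6 was 1.98-fold lower, close to the threshold of 2-fold, and Rarb differed by 0.25. When arrays were scaled on their median, the median of all genes in this comparison was 0.22 instead of 0.03 and 1092 genes were higher and 856 lower, against 841 higher and 1088 lower as scaled here, and the same 6 members stayed past 2-fold in the same direction. With another background correction (normexp), which pulls low signals together, Cyp26a1 and Cyp26b1 differed by 0.64 and -0.69, under 2-fold, and Aldh1a2 and Dhrs3 by 1.1 and -1.81, less than the bounds given here. Summed marker signals were 5.47 against 25.1 for the squamous and basal list and 33.1 against 56.4 for the mesothelial list. They were 17.8 against 26.4 for the multiciliated list and 13.8 against 18.1 for the leukocyte list. Of the multiciliated markers, Dynlrb2 had levels of -2.58 against 0.86 and Foxj1 of -1.54 against 0.07. The part of these markers was not tested.

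The comparison of Pik3ca/Trp53 with Trp53 loss addresses what the PI3-kinase mutant adds, and it uses the same Trp53 loss array, as does the next one for Apc. 5 of 8 genes were at least 2-fold higher in Pik3ca/Trp53 and 2 at least 2-fold lower, beside 9.15% of 14237 genes higher and 8.54% lower. The median size was 3.12 for the 8 genes and 0.37 for all genes. Aldh1a1 was 9.48-fold higher, Dhrs3 at least 8.61-fold, Rarb at least 4.52-fold over 2 probes with an SD of 0.82 between them, and Stra6 2.16-fold. Cyp26b1 was 8.01-fold higher, with its dim Trp53 loss signal as measured. Cyp26a1 was at least 5.91-fold lower and Aldh1a2 at least 4.11-fold lower, so that Cyp26a1 stood on the opposite side from Dhrs3 and Cyp26b1. Aldh1a3 was 1.83-fold lower. The Trp53 loss array enters this comparison and the one with control with opposite signs, so its own deviations move both. With normexp Aldh1a2 and Stra6 differed by -0.97 and 0.87, under 2-fold, and Dhrs3, Cyp26b1, Rarb and Cyp26a1 by 2.14, 1.30, 1.34 and -1.33, less than the fold of Cyp26b1 and the bounds of the others given here. Summed marker signals were 29.0 against 5.47 for the squamous and basal list and 16.9 against 33.1 for the mesothelial list, and their part was not tested.

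Setting Apc/Trp53 against Trp53 loss addresses what the Apc allele adds, and here fewer genes were apart. 1 of 8 genes was at least 2-fold higher in Apc/Trp53 and 2 at least 2-fold lower, beside 5.43% of 14463 genes higher and 5.19% lower. The median size was 0.35 for the 8 genes and 0.24 for all genes. Aldh1a1 was 21.6-fold higher, and 0.415% of all measured genes had a difference at least as large. Dhrs3 was 4.13-fold lower on the 1 probe above background on either array, and Aldh1a2 was 2.86-fold lower. The differences of Aldh1a3, Cyp26a1, Cyp26b1, Rarb and Stra6 were -0.55, -0.15, 0.07, -0.06 and -0.04, all but the first within the technical spread. With normexp Aldh1a2 differed by -0.63, under 2-fold, and Aldh1a1 by 3.84. Summed marker signals were 18.1 against 33.1 for the mesothelial list, 6.15 against 13.8 for the leukocyte list and 1.40 against 0.335 for the endothelial list, and their part was not tested.

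Tumour-derived Pik3ca/Trp53 was compared with Pik3ca/Trp53 to ask how the culture grown from the tumour differed from the one that was inoculated. 3 of 7 measured genes were higher by at least 2-fold and 3 were lower, beside 14.6% of 14727 genes higher and 10.4% lower. The median size was 2.08 for the 7 genes and 0.47 for all genes. Aldh1a3 was 33.4-fold higher, Cyp26a1 at least 10.1-fold and Cyp26b1 4.11-fold. Aldh1a1 was 15.1-fold lower, Stra6 4.22-fold lower and Rarb at least 3.44-fold lower. Dhrs3 differed by 0.20, within the technical spread, and Aldh1a2 was dim on both arrays. With normexp Cyp26a1, Aldh1a1 and Rarb differed by 1.87, -3.17 and -1.16. Between these 2 arrays the summed signal was 5.82 against 0.185 for the fibroblast list, 80.6 against 16.9 for the mesothelial list and 41.5 against 29.0 for the squamous and basal list. The brightest fibroblast marker was Postn, at 1.18 to 2.98 over its probes against dim signals. The mesothelial sum counts Krt14, at 4.92 against -2.96, beside Msln, at 5.64 against 3.77. Krt5 had a level of 3.47 against a dim signal, and the part of these markers in the differences was not tested.

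Tumour-derived Apc/Trp53 was compared in the same way with Apc/Trp53. 4 of 8 genes were higher by at least 2-fold and 2 were lower, beside 11.3% of 14888 genes higher and 8.03% lower. The median size was 2.98 for the 8 genes and 0.36 for all genes. Dhrs3 was at least 26.3-fold higher over 2 probes, Cyp26b1 23.9-fold, Aldh1a1 18.0-fold and Stra6 2.40-fold. For Dhrs3 as measured, 0.208% of all genes had a difference at least as large. Cyp26a1 was 6.40-fold lower and Aldh1a2 at least 1.99-fold lower. Aldh1a3 and Rarb differed by 0.28 and 0.18, and both signs turned under median scaling. With that scaling the median of all genes was -0.37 instead of -0.03, with 1250 genes higher and 2060 lower, against 1686 higher and 1196 lower as scaled here, and Stra6 stayed higher by 0.93, under 2-fold. With normexp Aldh1a2 differed by -0.76, and Dhrs3, Cyp26b1 and Cyp26a1 by 3.50, 2.59 and -1.12, which is smaller than the folds and the bound given here. The summed signal was 0.261 against 0.108 for the fibroblast list, 3.33 against 18.1 for the mesothelial list and 3.66 against 6.15 for the leukocyte list on these 2 arrays, and their part in these differences was not tested.

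**Figure D3:**
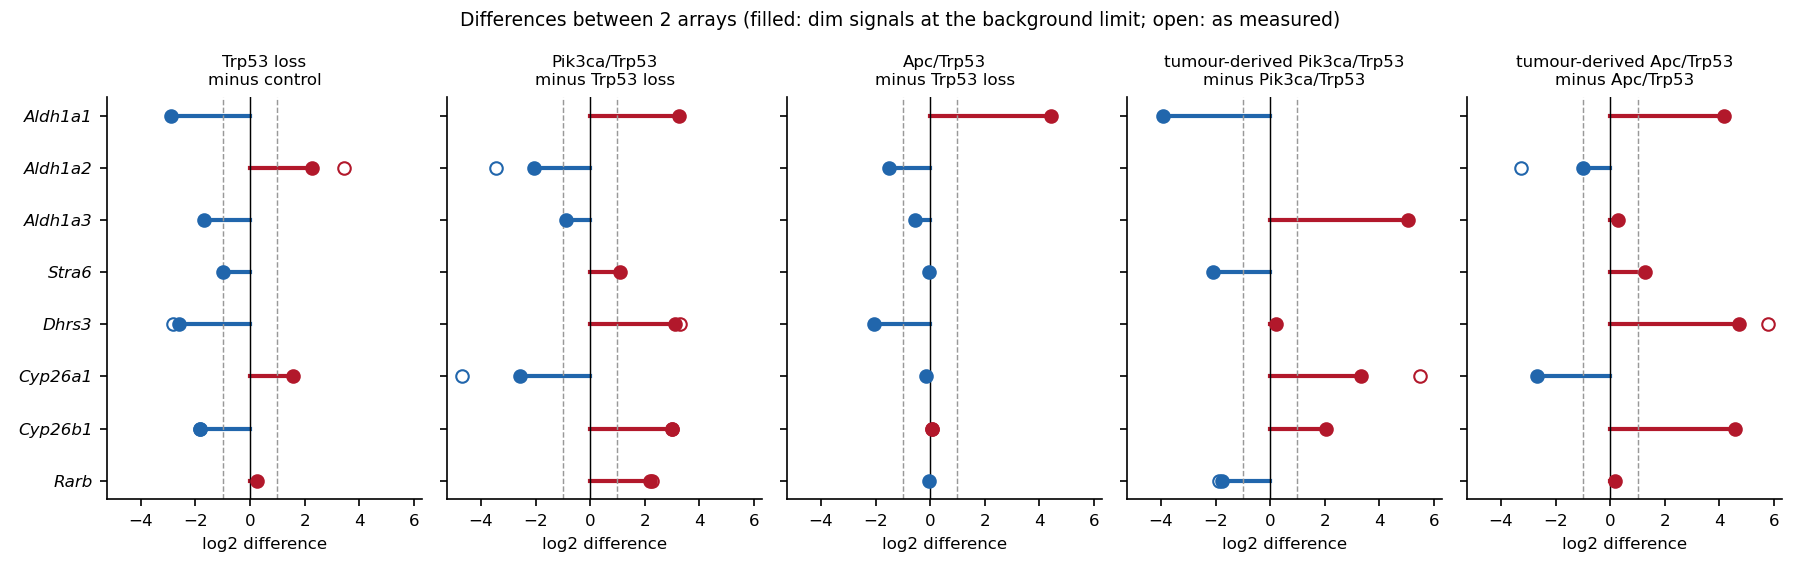
Log2 difference of each gene in the 5 comparisons (horizontal axis), with red for higher and blue for lower in the first-named culture. Each bar ends in a filled point, for which dim signals below the background limit are raised to it, open points are the differences as measured, and dashed lines mark 2-fold. Aldh1a1, Stra6 and Cyp26a1 lie on opposite sides in the 2 tumour-derived comparisons, and Cyp26b1 is higher in both.

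**Figure D4:**
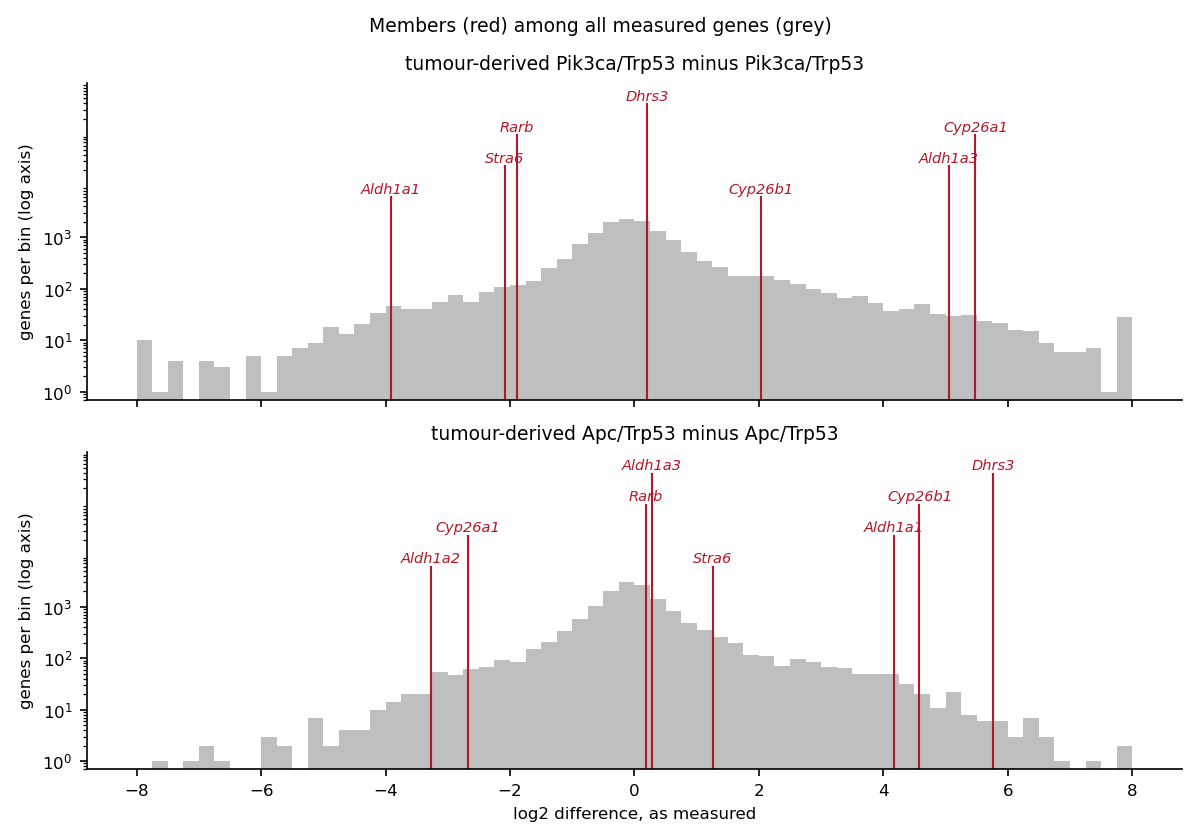
Differences of the retinoic acid genes (red lines, as measured) among those of all measured genes (grey bars, genes per bin on a log axis, with differences beyond 8 in either direction put in the last bin) for the 2 tumour-derived comparisons. In tumour-derived Pik3ca/Trp53 the genes spread from -3.92 for Aldh1a1 to 5.48 for Cyp26a1, and in tumour-derived Apc/Trp53 from -3.27 for Aldh1a2 to 5.77 for Dhrs3; line heights carry no value.

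Of the 7 members measured in both, Cyp26b1 was the one with a log2 difference of at least 1 in the same direction in both tumour-derived comparisons. Its levels were 0.60 and 0.21 in the tumour-derived arrays, against -1.44 and -4.37 in Pik3ca/Trp53 and Apc/Trp53. A limma fit across 14219 genes, with a block for genotype, which leaves 1 residual degree of freedom, gave a difference of 3.31 (SE 0.81, 2 pairs) with an adjusted p of 0.999 and an unadjusted p of 0.0307. The fit called 0% of genes higher and 0% lower at an adjusted p of 0.05. 544 genes had an unadjusted p under 0.05, and without the block 496 did, again with 0 calls. Differences and SEs were 2.99 and 1.70 for Dhrs3, 2.67 and 1.46 for Aldh1a3, and 0.12 and 2.44 for Aldh1a1, whose 2 pairs went in opposite directions.

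The 3 Trp53-loss cultures before inoculation (Pik3ca/Trp53, Apc/Trp53 and Trp53 loss) lay in slide row 1 and the single control in row 2. Slide row therefore cannot be told apart from a contrast between them, and each difference rests on the same control array. A second limma fit set these 3 cultures against that control, which is assumed to vary like the others. It called 0% of 15025 genes higher and 0% lower, while 1275 had an unadjusted p under 0.05, and with quantile normalization it called 2 higher and 74 lower, none of them a member. Aldh1a3 was lower than control on all 3 arrays, by 2.15 on average (a difference of -2.15, SE 0.43), with an adjusted p of 0.345 and an unadjusted p of 0.00865. Aldh1a1 differed by -0.35 (SE 1.94), since it was above control in Pik3ca/Trp53 and Apc/Trp53 and below it in Trp53 loss. Dhrs3 differed by -2.40 with an SE of 2.28.

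The other genes of retinoid metabolism were taken as 4 lists with 73 genes. Of 46 measured in Trp53 loss against control, 6 were at least 2-fold higher and 2 lower. In Pik3ca/Trp53 against Trp53 loss the counts were 7 and 2 of 46, and in Apc/Trp53 against Trp53 loss 10 and 1 of 47. In tumour-derived Pik3ca/Trp53 against Pik3ca/Trp53 they were 11 higher and 12 lower of 51, and in tumour-derived Apc/Trp53 against Apc/Trp53 10 and 7 of 50. The shares of all genes past the same threshold are those given above for each comparison.

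Among genes of retinoid uptake and storage, 4 of 8 measured were at least 2-fold higher in Trp53 loss than in control. None was lower by as much, beside 5.86% of all genes higher and 7.58% lower. The median of the list was 0.86 against 0.03 for all genes. Among the 4, Rbp4 lay near the threshold at 2.05-fold, and Lrat, dim in control, was at least 4.26-fold higher. Rbp7, a retinol-binding protein of the cell, had levels of 4.42 in tumour-derived Pik3ca/Trp53, -1.44 in Pik3ca/Trp53, 2.20 in tumour-derived Apc/Trp53, 1.49 in Apc/Trp53, -0.86 in Trp53 loss and -3.48 in control. It was lowest in control, 6.15-fold higher in Trp53 loss, 5.09-fold higher in Apc/Trp53 than in Trp53 loss, and 58.3-fold higher in tumour-derived Pik3ca/Trp53 than in Pik3ca/Trp53. Stra6l, a paralog of Stra6 and a receptor for the blood carrier of retinol in the mouse, was 4.79-fold higher in Trp53 loss than in control and at least 5.91-fold lower in tumour-derived Pik3ca/Trp53 than in Pik3ca/Trp53. Lrat, the enzyme that stores retinol as esters, was at least 3.63-fold lower in Pik3ca/Trp53 than in Trp53 loss. Bco2, a carotenoid-cleaving enzyme, was 2.96-fold higher in Apc/Trp53 than in Trp53 loss, whose dim signal was used as measured. It was 5.06-fold higher in tumour-derived Apc/Trp53 than in Apc/Trp53.

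Of the oxidoreductases of retinol and retinal, 6 of 14 measured were at least 2-fold higher in Apc/Trp53 than in Trp53 loss and none at least 2-fold lower, beside 5.43% and 5.19% of all genes. Their median was 0.38, or 0.24 where dim signals were set to the background limit, against 0.03 for all genes. Among the 6, Adh7 had a bound of 1.05-fold, and Rdh9, Rdh10 and Rdh16 lay near the threshold, at 2.09-fold, 2.03-fold and at least 2.10-fold. Aldh1a7, a paralog that lies close to Aldh1a1 in sequence, had levels of -4.30 in tumour-derived Pik3ca/Trp53, -0.54 in Pik3ca/Trp53, 2.43 in tumour-derived Apc/Trp53, -0.04 in Apc/Trp53, -3.53 in Trp53 loss and -0.89 in control. Its order was that of Aldh1a1 on all 6 arrays, and how far the 2 probes bind each other's transcripts was not tested. Rdh16, a retinol dehydrogenase, was at least 9.42-fold higher in Pik3ca/Trp53 than in Trp53 loss and at least 9.20-fold lower in tumour-derived Pik3ca/Trp53 than in Pik3ca/Trp53. It was also 3.36-fold higher in tumour-derived Apc/Trp53 than in Apc/Trp53. Rdh1, another retinol dehydrogenase, was 4.21-fold higher in Apc/Trp53 than in Trp53 loss. Adh1, an alcohol dehydrogenase that also acts on retinol, was lower in Trp53 loss by at least 2.93-fold relative to control.

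The list of carriers, receptors and coregulators stayed closer to 0, with medians of -0.04 to 0.12 over the 5 comparisons. Fabp5, a fatty acid carrier that can also carry retinoic acid, was 2.55-fold higher in Trp53 loss than in control, 2.16-fold higher in Pik3ca/Trp53 and 2.08-fold higher in Apc/Trp53 than in Trp53 loss, and 4.21-fold lower in tumour-derived Apc/Trp53 than in Apc/Trp53. In tumour-derived Pik3ca/Trp53, the receptor gene Rarg was 2.11-fold above Pik3ca/Trp53. Crabp1 and Cyp26c1 were dim on all 6 arrays.

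Genes known to respond to retinoic acid in other settings, such as early Hox genes, were taken as a list of 26. In Trp53 loss against control 1 of 14 measured was at least 2-fold higher, Cdx1, whose bound was 1.14-fold, beside 5.86% of all genes higher and 7.58% lower. In both Pik3ca/Trp53 and Apc/Trp53 against Trp53 loss, 0 of 14 were 2-fold apart in either direction, beside 9.15% and 5.43% of all genes higher and 8.54% and 5.19% lower. Whether the counts of so few genes differ from the shares of all genes was not tested. In tumour-derived Pik3ca/Trp53 2 of 15 were at least 2-fold higher and 4 lower, beside 14.6% of all genes higher and 10.4% lower. Rarres1, known as a retinoid-induced gene of human skin, was at least 5.18-fold higher, and Hoxd4 was 5.63-fold lower. In tumour-derived Apc/Trp53 3 of 16 were at least 2-fold higher and 3 lower, beside 11.3% of all genes higher and 8.03% lower. The receptor tyrosine kinase gene Ret was at least 5.59-fold higher, and the orphan nuclear receptor gene Nr2f1 was 4.15-fold lower.

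For each member that at least 3 of 6 arrays showed well above background, the other genes with the most similar profile were those with the smallest root mean square difference after each profile was centred on its mean. For Aldh1a1 they were Aldh1a7 (0.92, Pearson r 0.99 over 6 arrays) and Apcdd1 (1.13, r 0.95). For Aldh1a3 they were Ecm1 and Wnt5b, both at 0.44 with r 0.97, and for Cyp26a1 they were Timp3 (0.45, r 0.98) and Etv1 (0.73, r 0.92). For Dhrs3 they were Ephx2 (0.99, r 0.89) and Wfdc3 (1.01, r 0.92). For Cyp26b1 they were Ifi27l2a (0.48, r 0.97) and Cpsf4l (0.61, r 0.97), for Rarb St3gal2 (0.34, r 0.98) and Nostrin (0.43, r 0.94), and for Stra6 Ermn (0.11, r 0.99) and Pik3ca (0.12, r 0.99). They are the closest of 12560 to 13124 genes compared for each member, and whether such closeness goes beyond the number of genes searched was not tested.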

How the data were processed

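Per the submitters' processing notes, the scanner software was Agilent Feature Extraction 11.0.1.1, and each deposited scanner file gives the intensity of every spot after background subtraction and before any scaling between arrays. A smaller table that the authors deposited gives log2 values for 2047 probes, 3 of them of the genes studied here, with medians of -0.32 to 0.15 per array. Its differences matched those of the scanner values with a slope of 1, and the sources used here do not say how it was centred or its probes chosen.

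Intensities were divided by the array's 75th percentile and log2 transformed. Control and outlier spots were left out, and copies of a probe were averaged. Probes were named through their RefSeq accession (34566 of 56605, for 23787 genes). A gene's difference is the mean over the probes that either of the 2 arrays showed well above background. Genes were counted from a log2 difference of 1 upwards in size. Both limma fits used lmFit and eBayes on all genes with Benjamini-Hochberg adjustment. The fit of tumour-derived against before inoculation, with a genotype block, took genes that at least 2 of 4 arrays showed well above background. The fit of Trp53-loss cultures against control took genes that at least 1 of 4 did. Both were also run on simulated arrays with the same SD for all genes, which does not bear on how many genes could be called in these data. Of the 3 pairs in the design, 2 were analysed here.

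The members, the lists of other pathway genes and of cell type markers, and the comparisons were chosen with earlier results of these data known. Other pathway genes are named where they are among the 2 with the largest difference of their list in a comparison, with dim signals at the background limit, and some genes that meet this rule are not reported here. The 2 most similar profiles are named for members that 3 or more of the 6 arrays showed well above background. Crabp1 and Cyp26c1, dim on all 6 arrays, are named beside them. The alternatives were other scalings, background corrections and filters on dim probes, 1 probe per gene, and dim signals at the background limit. The normexp correction (offset 50) used the median spot signal, a choice made after seeing which columns the files hold. Fits were run in R 4.3.3 (limma 3.58.1, files read with data.table, version 1.17.8), other steps in Python 3.11.15 (pandas 2.3.3, numpy 2.4.6), and plots were drawn with matplotlib 3.10.9.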

Additional observations from a re-analysis of the deposited data

Results flagged for a closer look

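3 genes went in opposite directions in the 2 tumour-derived cultures relative to their own cultures before inoculation, and the difference between the pairs was not tested. Aldh1a1 differed by -3.92 in tumour-derived Pik3ca/Trp53 and by 4.17 in tumour-derived Apc/Trp53. Cyp26a1 differed by 5.48 as measured, or by at least 3.33 with the dim Pik3ca/Trp53 signal at the background limit, in tumour-derived Pik3ca/Trp53 and by -2.68 in tumour-derived Apc/Trp53. Stra6 differed by -2.08 in tumour-derived Pik3ca/Trp53 and by 1.26 in tumour-derived Apc/Trp53. All values are log2 differences between 2 arrays, and each pair is 1 culture and its descendant.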

How the results depend on the processing

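28 of the 39 member differences between 2 arrays were at least 2-fold, and none of the 28 turned its sign under any alternative run. All 28 stayed past 2-fold with quantile normalization, without a filter on dim probes and with 1 probe per gene, as did 27 with median scaling, 27 with dim signals at the background limit, 22 with normexp, 13 of 13 in the deposited value table and 16 of 16 with only probes above background on all 6 arrays. Median scaling gave 2060 genes lower in tumour-derived Apc/Trp53, and leaving dim probes in gave 1229 lower in Apc/Trp53 against Trp53 loss. With normexp 268 genes were higher and 390 lower in Trp53 loss against control, 667 and 434 in Pik3ca/Trp53 against Trp53 loss, 245 and 253 in Apc/Trp53 against Trp53 loss, 1119 and 783 in tumour-derived Pik3ca/Trp53, and 658 and 545 in tumour-derived Apc/Trp53. The members at least 2-fold higher and lower were then, in the same order, 1 and 3, 4 and 1, 1 and 1, 3 and 3, and 4 and 1. With only probes above background on all 6 arrays, which keeps 5 members, the counts in the same order were 348 and 492, 776 and 596, 320 and 320, 998 and 982, and 681 and 754 genes. The members at least 2-fold higher and lower were then 0 and 3, 4 and 0, 1 and 1, 1 and 3, and 3 and 0, with fewer members tested. With dim signals at the background limit, 1 member was lower in tumour-derived Apc/Trp53. Quantile normalization turned 0 calls of the fit against control into 2 higher and 74 lower, and the cause was not tested. In the tumour-derived fit, leaving out the genotype block changed no call and moved the unadjusted p of Cyp26b1 to 0.0431. No paired analysis by replicate number was possible because every group has 1 array. No replicate could be left out for the same reason. Signals near the background limit bound what can be read of Aldh1a2, Cyp26a1, Cyp26b1 and the second Rarb probe.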
